A study of Arabidopsis thaliana with 12 samples.

Results

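The jasmonate synthesis and turnover enzymes are 10 Arabidopsis genes chosen by locus: LOX2 (AT3G45140), LOX3 (AT1G17420), LOX4 (AT1G72520), AOS (AT5G42650), AOC1 (AT3G25760), AOC3 (AT3G25780), OPR3 (AT2G06050), JAR1 (AT2G46370), CYP94B3 (AT3G48520) and CYP94C1 (AT2G27690). The rule uses no measured value. Of the 10 genes, 9 were tested among 26782 genes and unnamed probes in all. LOX4 was not analysed here, because no probe was listed under its name. All 9 others passed the filter on dim probes.

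Jasmonates are oxylipin hormones of wounding, defence and stamen development. In the plastid, 13-lipoxygenases such as LOX2 and LOX3 oxygenate linolenic acid, allene oxide synthase (AOS) and the allene oxide cyclases (AOC) turn the product into OPDA, and in the peroxisome OPR3 reduces OPDA before beta-oxidation shortens it to jasmonic acid. JAR1 joins jasmonic acid to isoleucine, which gives the form that the receptor COI1 binds, and the cytochrome P450 enzymes CYP94B3 and CYP94C1 oxidise that conjugate and so lower its activity. Many genes of the pathway are themselves induced by jasmonate.

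RNA from whole seedlings was hybridised to 12 Agilent arrays of 1 colour, with 3 arrays in each of 4 groups. These were SvGRP transformants at 150 mM NaCl, SvGRP transformants at 0 mM NaCl, wild type (Col-0) at 150 mM NaCl and wild type at 0 mM NaCl. The transgene of the SvGRP plants codes for a protein of the glycine-rich RNA-binding kind, from a species that the labels spell S. virginics. In all 4 groups, seedlings were moved to the test medium at 5 days, kept there for 24 h and harvested at 6 days of age. The promoter of the transgene and the number of independent lines are not given in the sources used here, and no probe for the transgene was used, so its own level was not analysed here. The labels do not say whether the replicates were grown separately, and the p-values therefore reflect no more than the spread among these arrays, part or all of which could be technical.

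Levels are log2 signals minus the 75th percentile of the array, so a level of 0 equals that percentile. The percentile lay at a signal of 3641 to 5676. Levels of different genes come from different probes and, outside the summed marker signals, were not set against each other. Differences are log2 values ± SE from 1 limma fit of all 4 groups, and a gene was called at an adjusted p below 0.05 (Benjamini-Hochberg over all 26782 features). "Rose", "fell", "higher" and "lower" as verdicts refer to called genes.

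The arrays came from 3 slides of 4 arrays each, by the slide identifiers in the deposited files. On slide 1 were the wild type at 0 mM and replicate 1 of the wild type at 150 mM. On slide 2 were replicates 2 and 3 of the wild type at 150 mM and replicates 1 and 2 of SvGRP at 0 mM, and on slide 3 were replicate 3 of SvGRP at 0 mM and all of SvGRP at 150 mM. At neither NaCl level did SvGRP and wild type share a slide. A fit with slide joins slides 1 and 2 only through the wild type at 150 mM. It joins slides 2 and 3 only through SvGRP at 0 mM. In that fit, salt in wild type and the genotype difference at 0 mM rest on replicate 1 of the wild type at 150 mM. Salt in SvGRP and the genotype difference at 150 mM rest in the same way on replicate 3 of SvGRP at 0 mM. The interaction rests on both of these arrays. Replicate 1 of the wild type at 150 mM, the only array of its group on slide 1, was the highest of its group for 8 of the 9 members, against 28.5% of all features. CYP94C1 was 10.7-fold higher on it than the mean of the other 2 arrays of the group, LOX3 2.05-fold, OPR3 1.82-fold and AOC1 1.79-fold. Replicate 2 of SvGRP at 0 mM and replicate 3 of the wild type at 0 mM were each the highest of their group for 7 of the 9, against 34.9% and 30% of all features. The flower markers AP1 and AG were above the dim threshold on none of the 12 arrays, and all 6 shoot markers and all 5 measured root markers were above it on all 12. Arrays of 1 group correlated with each other at 0.990 to 0.997.

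**Figure D1:**
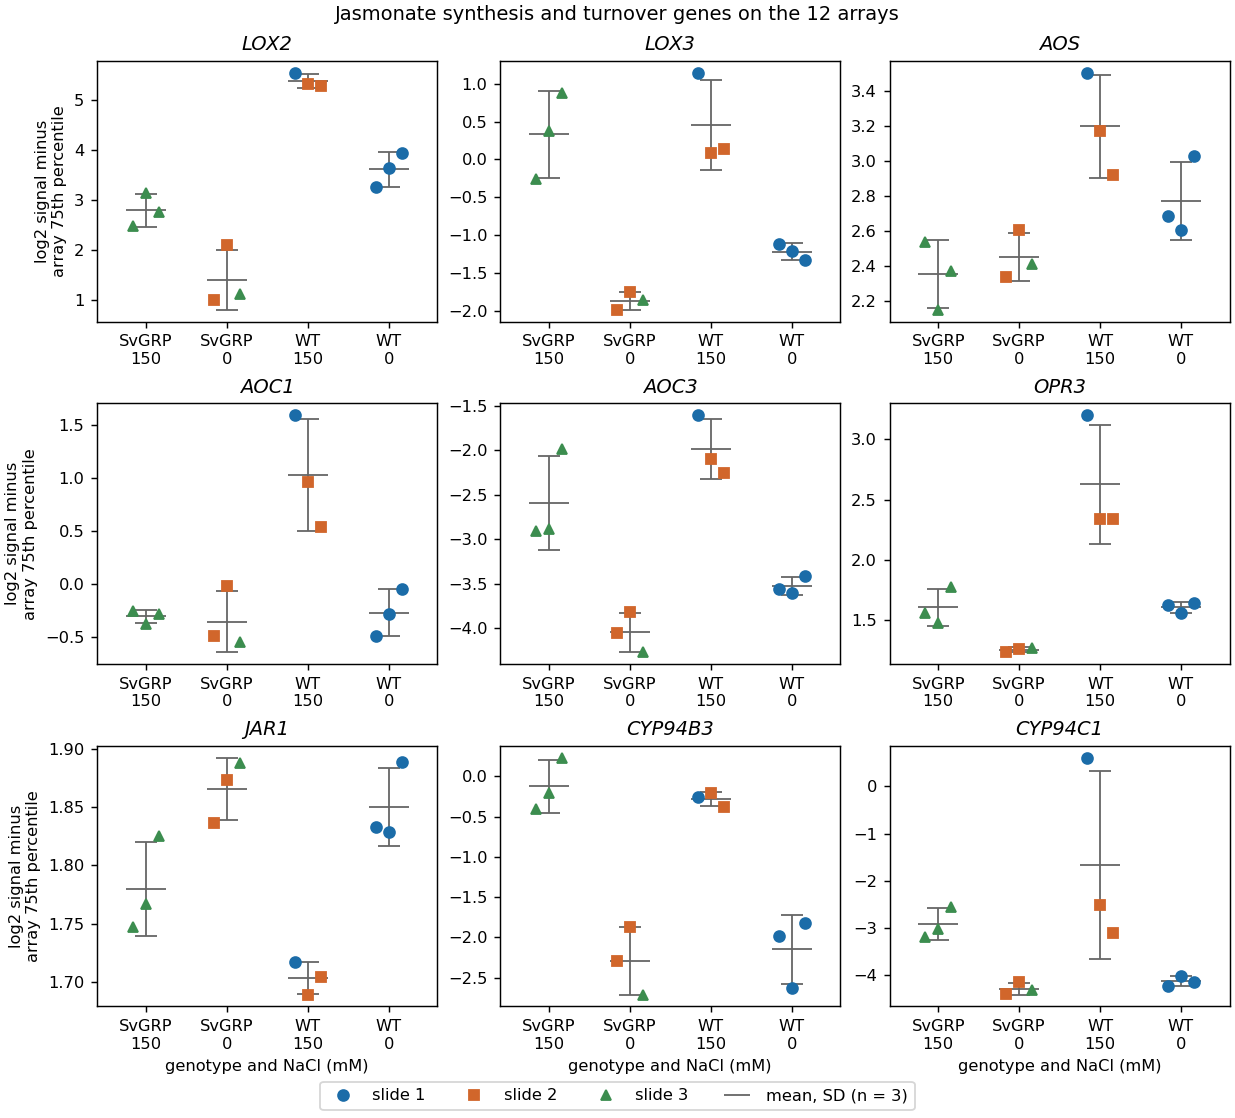
Level of each of the 9 members on each array (vertical axis, log2 signal minus the array's 75th percentile) in SvGRP at 150 and 0 mM NaCl and in wild type at 150 and 0 mM NaCl (horizontal axis). Marker shape and colour give the slide, and bars give the mean and SD of 3 arrays. LOX2 lies lower in SvGRP than in wild type at either NaCl level, and the blue wild-type array at 150 mM is the highest of its group in every panel but that of CYP94B3.

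Salt raised LOX2, LOX3, AOC3 and CYP94B3 in both genotypes, by between 1.40 and 2.20 in SvGRP and between 1.54 and 1.86 in wild type. In SvGRP at 150 mM NaCl against 0 mM, these were the 4 of 9 members that rose, and none fell, with 68.8% of all features called (31% higher and 37.8% lower). The groups did not overlap for 7 of 9 members, against 74.7% of all features, and the median difference over the members was 1.36, against -0.07 over all features. In wild type, 8 of 9 members rose and 1, JAR1, fell, in a comparison in which 63.2% of all features were called (33.1% higher and 30.2% lower). There the groups did not overlap for 8 of 9 members, against 69.5% of all features, and the median difference was 1.54, against 0.04 over all features.

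In SvGRP against wild type the members were lower or not called. At 150 mM NaCl, LOX2, AOS, AOC1 and OPR3 were lower in SvGRP and none was higher, with 28.9% of all features called (10.2% higher and 18.6% lower). The groups did not overlap for 5 of 9 members, against 40.2% of all features, and the median difference was -0.84, against -0.02. At 0 mM NaCl only LOX2 of the 9 was called, and it was lower in SvGRP, with 21.2% of all features called (10.4% higher and 10.8% lower). The groups did not overlap for 4 of 9 members, against 50.3%, and the median was -0.32, against 0.03. With slide in the fit no member was called at 150 mM, where 0.892% of all features were. At 0 mM that fit called 0.911% of all features and 1 member, CYP94C1, as higher in SvGRP, and not LOX2.

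The test of whether salt acted differently in the genotypes (the interaction, SvGRP response minus wild-type response) called 0 of 9 members by limma, against 8.96% of all features (2.52% higher and 6.45% lower). At an unadjusted p under 0.05 it held 2 members, AOC1 and OPR3, against 27.9% of all features. The median interaction was -0.38 over the members and -0.04 over all features. Calls that were made in 1 genotype and not in the other are therefore not shown to differ between them. Some other settings called an interaction for AOC1, and the fit with slide called it for OPR3 and CYP94C1. In that fit, salt in wild type rests on replicate 1 of the wild type at 150 mM. Without that array and without slide, the interaction was -0.38 for OPR3 and 0.04 for CYP94C1, neither called. The comparisons share groups: the wild type at 150 mM enters the salt response of wild type, the comparison of SvGRP with wild type at 150 mM, and the interaction.

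**Figure D2:**
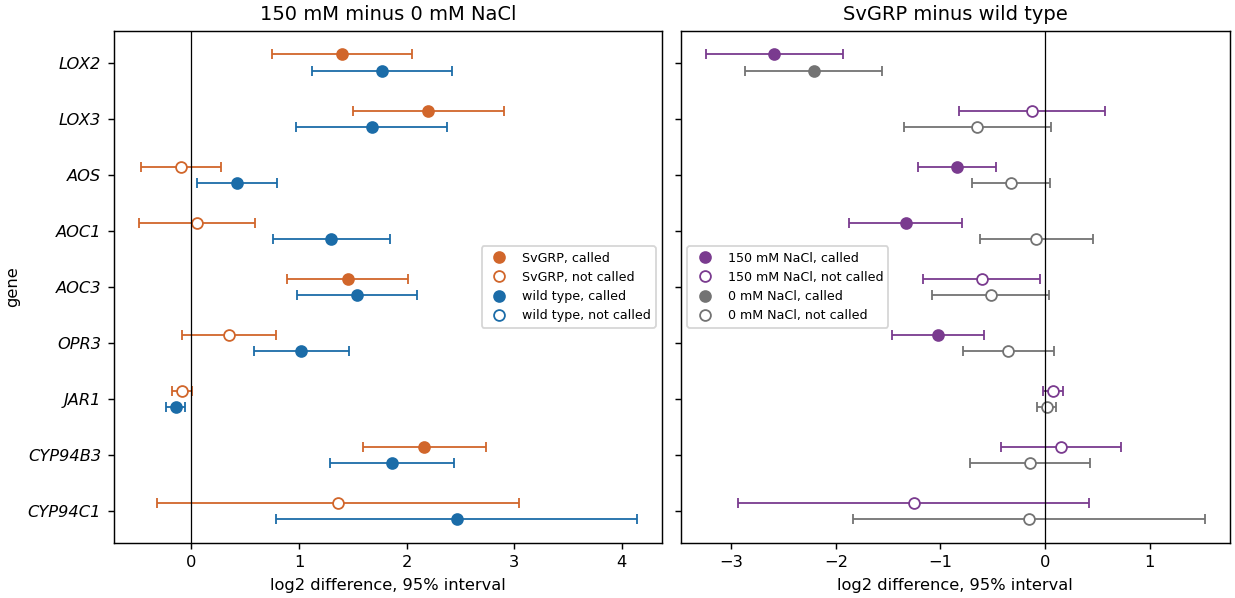
Log2 differences of the 9 members with 95% intervals (horizontal axis), for 150 mM minus 0 mM NaCl in SvGRP and wild type on the left, and for SvGRP minus wild type at 150 mM and 0 mM NaCl on the right. Filled points were called at an adjusted p below 0.05 and open points were not. LOX2, LOX3, AOC3 and CYP94B3 lie to the right of 0 in both genotypes, while AOC1 lies near 0 in SvGRP (0.05) and at 1.30 in wild type.

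LOX2 encodes the abundant leaf 13-lipoxygenase that supplies the pathway after wounding. Its level was 2.49, 3.15 and 2.76 in SvGRP at 150 mM NaCl and 1.00, 2.09 and 1.11 in SvGRP at 0 mM. In wild type it was 5.55, 5.33 and 5.28 at 150 mM and 3.26, 3.64 and 3.95 at 0 mM. Every array at 150 mM stood above every array of the same genotype at 0 mM, and the lowest wild-type array at 0 mM stood above the highest SvGRP array at 150 mM. The order of the groups was therefore wild type at 150 mM, wild type at 0 mM, SvGRP at 150 mM and SvGRP at 0 mM, with no neighbours overlapping.

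Salt raised LOX2 in SvGRP by 1.40 ± 0.29 (2.63-fold, limma adjusted p = 0.00177) and in wild type by 1.77 ± 0.29 (3.42-fold, adjusted p = 0.000485). The interaction was -0.38 ± 0.41 (95% interval -1.30 to 0.55, adjusted p = 0.589). LOX2 was lower in SvGRP than in wild type by -2.59 ± 0.29 at 150 mM (6.01-fold, adjusted p = 0.00035) and by -2.21 ± 0.29 at 0 mM (4.64-fold, adjusted p = 0.00116). Of all members it had the largest difference between the genotypes in the fit without slide. When slide was added to the fit the differences were -2.07 ± 0.57 (adjusted p = 0.139) and -1.82 ± 0.57 (adjusted p = 0.197), similar in size and past the threshold at neither level of NaCl. Without replicate 1 of the wild type at 150 mM, LOX2 differed by -2.51 at 150 mM (adjusted p = 0.00173).

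All 4 LOX2 probes gave the same directions. Fitted one by one among 35454 probes, they differed by -2.73 to -2.53 at 150 mM and by -2.21 to -1.48 at 0 mM between SvGRP and wild type, each called. For salt in wild type the brightest probe, which is the one used here, gave 1.77 and the dimmer probes gave 2.11 to 2.39. Columns that flag saturated spots were not used here, so whether the brightest arrays were at the scanner's limit was not tested.

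LOX2 is a gene of green tissue, and shoot markers moved with salt and with genotype relative to the 75th percentile. Before scaling, signals at 0 mM were 470500 to 490000 in wild type and 476000 to 481400 in SvGRP for RBCS1A. For LHCB1.1 they were 443400 to 472400 and 436600 to 450400. The percentile itself was 3641 to 4226 in wild type and 4536 to 4805 in SvGRP. Whether these bright spots were at the scanner's limit was not tested. The summed signal of the 6 shoot markers, in units of the 75th percentile, was 210 to 230 in SvGRP and 206 to 218 in wild type at 150 mM NaCl, and 264 to 282 in SvGRP and 298 to 346 in wild type at 0 mM. Bright genes make up most of that sum. RBCS1A, LHCB1.1 and RCA had levels of 5.31 or more on every array, and STM, FIL and SPCH 0.24 or less. With salt, 4 of 6 shoot markers fell in SvGRP and 5 of 6 in wild type, while LOX2 rose. Over all features 37.8% fell in SvGRP and 30.2% in wild type. At 0 mM, 3 of 6 shoot markers were lower in SvGRP, against 10.8% of all features. The largest fall was that of STM, a meristem gene, with -0.44. At 150 mM only STM was lower, with -0.37, against 18.6% of all features. With slide in the fit none of the 6 was called between the genotypes, where 0.892% (150 mM) and 0.911% (0 mM) of all features were. With E1A spike-in scaling, 3 of 6 fell with salt in either genotype and STM rose in wild type, and at 0 mM none was lower and 2 were higher in SvGRP. The summed shoot signals of the genotypes overlapped at 150 mM and not at 0 mM. In seedlings measured whole, fewer cells of a type and less RNA per cell cannot be told apart, and the part of the markers in the LOX2 difference was not tested.

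LOX3 encodes a second 13-lipoxygenase, which is induced by wounding and acts with LOX4 in stamen fertility. Its level was -0.26, 0.38 and 0.88 in SvGRP at 150 mM NaCl, against -1.99, -1.75 and -1.86 in SvGRP at 0 mM. The wild-type arrays had 1.14, 0.09 and 0.13 at 150 mM, against -1.11, -1.22 and -1.33 at 0 mM. The arrays of the 2 genotypes were intermixed at 150 mM, and at 0 mM all SvGRP arrays were below all wild-type arrays. Salt raised LOX3 in SvGRP by 2.20 ± 0.31 (4.59-fold, limma adjusted p = 0.000149) and in wild type by 1.68 ± 0.31 (3.20-fold, adjusted p = 0.00106), or by 1.33 in wild type without replicate 1 at 150 mM. Between SvGRP and wild type it differed by -0.13 ± 0.31 at 150 mM (95% interval -0.82 to 0.58, and 0.22 without that array) and by -0.65 ± 0.31 at 0 mM (-1.35 to 0.05, adjusted p = 0.168), neither called. One of its 4 probes went against the others: it gave -0.10 for salt in SvGRP and -0.22 in wild type (adjusted p = 0.706 and 0.424), where the other 3 probes rose.

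AOS encodes the single allene oxide synthase of Arabidopsis, the first enzyme committed to the jasmonate branch. Its level was 2.54, 2.15 and 2.38 in SvGRP at 150 mM NaCl and 2.34, 2.61 and 2.41 in SvGRP at 0 mM. The wild type had 3.50, 3.17 and 2.92 at 150 mM and 2.69, 2.60 and 3.03 at 0 mM. The salt groups overlapped in both genotypes, while at 150 mM every SvGRP array was below every wild-type array. Salt gave -0.10 ± 0.17 in SvGRP (limma adjusted p = 0.619) and a rise of 0.43 ± 0.17 in wild type (adjusted p = 0.0463), which was lost without any 1 of 8 arrays (0.27 and adjusted p = 0.163 without replicate 1 of the wild type at 150 mM). At 150 mM, AOS was lower in SvGRP by -0.84 ± 0.17 (1.79-fold, adjusted p = 0.00518, and -0.69 without the same array), and when slide was fitted the difference was -0.63 ± 0.28 (adjusted p = 0.333).

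AOC1 and AOC3 encode allene oxide cyclases, which close the ring of the jasmonate precursor. With AOC2 they lie next to each other in the TAIR10.1 annotation and are close copies. Probe sequences were not used here, so how far a probe reads a neighbouring copy is uncertain. AOC1 stood at -0.25, -0.37 and -0.28 in SvGRP at 150 mM NaCl, against -0.49, -0.02 and -0.55 in SvGRP at 0 mM. Wild-type levels were 1.59, 0.96 and 0.54 at 150 mM, against -0.48, -0.28 and -0.04 at 0 mM. The wild type at 150 mM was thus apart from the other 3 groups, which overlapped one another.

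Salt gave 0.05 ± 0.24 for AOC1 in SvGRP (95% interval -0.49 to 0.59) and raised it by 1.30 ± 0.24 in wild type (2.46-fold, limma adjusted p = 0.00102). At 150 mM NaCl it was lower in SvGRP by -1.33 ± 0.24 (2.52-fold, adjusted p = 0.00347), and at 0 mM the difference was -0.08 ± 0.24 (-0.62 to 0.46). Its interaction, -1.25 ± 0.34, was the largest in size among the 9 members and just missed the threshold (adjusted p = 0.0505). It passed under 7 of the planned settings, among them the fit without replicate 1 of the wild type at 150 mM (-0.97, adjusted p = 0.0433), in which salt in wild type gave 1.02 and the difference at 150 mM was -1.05, both called. Its second probe gave -1.69 ± 0.39 (adjusted p = 0.0337). Of the 12 fits that left out 1 array, 2 called the interaction and 10 did not, and 6 of 12 other alternatives called it. Among those 6 was a fit added after seeing the data, without replicate 1 of the wild type at 150 mM and replicate 3 of SvGRP at 0 mM. Another was the fit with slide as a random block, which called the interaction for 27.6% of all features. Fitted with slide, the interaction was -1.62 ± 0.33 and not called (adjusted p = 0.1). In that fit the difference at 150 mM was -0.76 ± 0.31 (adjusted p = 0.295).

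AOC3 followed salt in both genotypes. It stood at -2.91, -2.88 and -1.99 in SvGRP at 150 mM NaCl and at -4.05, -3.82 and -4.27 in SvGRP at 0 mM. In wild type it stood at -1.61, -2.10 and -2.26 at 150 mM and at -3.56, -3.61 and -3.42 at 0 mM. Salt raised it by 1.45 ± 0.25 in SvGRP (2.74-fold, limma adjusted p = 0.000523) and by 1.54 ± 0.25 in wild type (2.91-fold, adjusted p = 0.00045). Between the genotypes it differed by -0.61 ± 0.25 at 150 mM (adjusted p = 0.0962) and by -0.52 ± 0.25 at 0 mM (adjusted p = 0.167), with the arrays overlapping at 150 mM and all SvGRP arrays lower at 0 mM. Without replicate 3 of SvGRP at 150 mM, the highest of its group, the difference at 150 mM was called (-0.91, adjusted p = 0.0089). Without replicate 1 of the wild type at 150 mM it was -0.42, and salt in wild type gave 1.35 (adjusted p = 0.00182).

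OPR3 encodes the peroxisomal reductase without which mutants make little jasmonic acid and are male sterile. Its level was 1.56, 1.48 and 1.78 in SvGRP at 150 mM NaCl, against 1.23, 1.26 and 1.27 in SvGRP at 0 mM. Wild-type arrays reached 3.20, 2.34 and 2.34 at 150 mM, against 1.62, 1.55 and 1.64 at 0 mM. Each salt group was above its control without overlap, and SvGRP at 150 mM covered the range of the wild type at 0 mM. Salt gave 0.35 ± 0.20 in SvGRP (limma adjusted p = 0.136) and a rise of 1.02 ± 0.20 in wild type (2.03-fold, adjusted p = 0.00127). Without replicate 1 of the wild type at 150 mM, these were 0.35 ± 0.07 (adjusted p = 0.00223) and 0.73.

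At 150 mM NaCl, OPR3 was lower in SvGRP by -1.02 ± 0.20 (2.03-fold, limma adjusted p = 0.0046), and at 0 mM it differed by -0.35 ± 0.20 (adjusted p = 0.23). Without the same wild-type array the difference at 150 mM was -0.73 (adjusted p = 0.000811), and that at 0 mM was called (-0.35, adjusted p = 0.0113). With slide in the fit the difference at 150 mM was -0.76 ± 0.15 (adjusted p = 0.063), and that at 0 mM turned to 0.50 ± 0.15 (adjusted p = 0.172). The interaction, -0.67 ± 0.28 without slide (adjusted p = 0.151), was called in that fit at -1.26 ± 0.16 (adjusted p = 0.0225). There salt in wild type gave 1.60 and rests on replicate 1 at 150 mM. Without that array, in the fit without slide, the interaction was -0.38 ± 0.11 and not called (adjusted p = 0.0556). The second OPR3 probe gave the same directions in all comparisons.

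JAR1, the conjugating enzyme, hardly moved. Its level was 1.75, 1.77 and 1.83 in SvGRP at 150 mM NaCl and 1.84, 1.87 and 1.89 in SvGRP at 0 mM, and in wild type 1.72, 1.69 and 1.70 at 150 mM and 1.83, 1.83 and 1.89 at 0 mM. Salt gave -0.09 ± 0.04 in SvGRP (limma adjusted p = 0.086) and lowered it by -0.15 ± 0.04 in wild type (1.11-fold, adjusted p = 0.0104). That direction depends on the scaling, because relative to E1A spike-in probes JAR1 had differences of 0.14 in SvGRP and 0.28 in wild type (adjusted p = 0.0244), while the median of all features moved by 0.16 and 0.46. The genotypes differed by 0.08 ± 0.04 at 150 mM and 0.02 ± 0.04 at 0 mM on the probe used, neither called. Both dimmer probes of JAR1 were higher in SvGRP, by 0.39 and 0.42 at 150 mM and by 0.49 and 0.52 at 0 mM, each called, so the JAR1 probes disagree on genotype.

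CYP94B3 encodes the enzyme that hydroxylates jasmonoyl-isoleucine, and it rose with salt in both genotypes. Its level was -0.41, -0.20 and 0.23 in SvGRP at 150 mM NaCl, against -2.30, -1.87 and -2.71 in SvGRP at 0 mM. The wild type had levels of -0.26, -0.21 and -0.38 at 150 mM, against -1.98, -2.63 and -1.82 at 0 mM. Salt and control arrays were well apart in both genotypes, and the genotypes overlapped at each NaCl level. Salt raised CYP94B3 by 2.17 ± 0.26 in SvGRP (4.49-fold, limma adjusted p = 4.34e-05) and by 1.86 ± 0.26 in wild type (3.64-fold, adjusted p = 0.000158), and within slides by 2.58 and 1.89. The difference between SvGRP and wild type was 0.16 ± 0.26 at 150 mM (95% interval -0.42 to 0.73) and -0.15 ± 0.26 at 0 mM (-0.72 to 0.43).

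CYP94C1, whose product oxidises the hydroxylated conjugate further, had 1 array far above the others. Its level was -3.20, -3.02 and -2.55 in SvGRP at 150 mM NaCl and -4.40, -4.15 and -4.31 in SvGRP at 0 mM. In wild type it was 0.61, -2.50 and -3.11 at 150 mM and -4.24, -4.02 and -4.13 at 0 mM. All salt arrays were above all control arrays of their genotype, and replicate 1 of the wild type at 150 mM was that high array. Salt gave 1.36 ± 0.75 in SvGRP (limma adjusted p = 0.131) and a rise of 2.46 ± 0.75 in wild type (adjusted p = 0.0159). Without that array the salt differences were 1.36 ± 0.19 in SvGRP (adjusted p = 0.00022) and 1.33 ± 0.21 in wild type (adjusted p = 0.000736), and the interaction was 0.04 in place of -1.101. The genotypes differed by -1.26 ± 0.75 at 150 mM (adjusted p = 0.234), or by -0.12 without that array. With slide in the fit, where salt in wild type rests on that array alone, CYP94C1 gave 4.74 for salt in wild type and 3.27 for SvGRP against wild type at 0 mM (adjusted p = 0.0116), and its interaction was called at -3.36 (adjusted p = 0.0195).

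**Figure D3:**
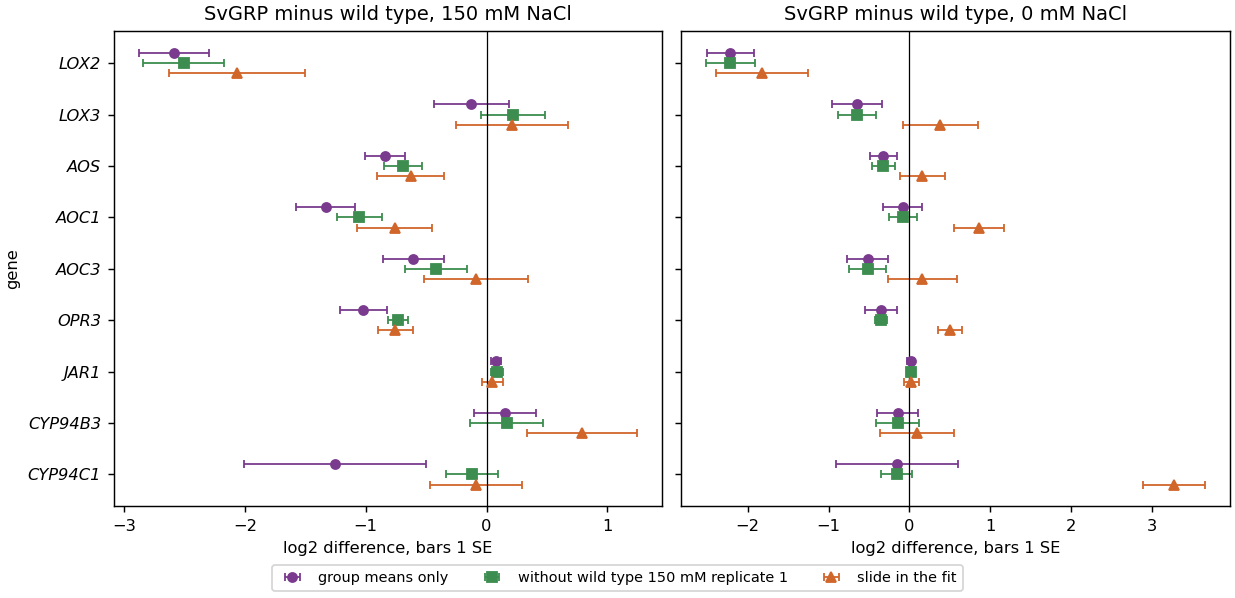
Log2 differences of SvGRP minus wild type (horizontal axis, bars 1 SE) at 150 mM NaCl on the left and 0 mM on the right, for group means only (circles), without replicate 1 of the wild type at 150 mM (squares) and with slide in the fit (triangles). LOX2 stays between -2.59 and -1.82 in all of them, whereas 7 of the 9 members turn positive at 0 mM with slide in the fit, among them AOC1 (0.86), OPR3 (0.50) and CYP94C1 (3.27). With slide in the fit, the values at 0 mM rest on replicate 1 of the wild type at 150 mM. Those at 150 mM rest on replicate 3 of SvGRP at 0 mM.

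The members did not rise and fall as 1 block. Each member was centred on its mean over the 12 arrays, and the mean of the 9 was taken as their shared profile. Pearson's r with that profile, which each member helps to make, was 0.97 for AOC3, 0.94 for OPR3, 0.91 for CYP94C1 and LOX3, 0.87 for AOC1, 0.86 for LOX2, 0.81 for CYP94B3, 0.70 for AOS and -0.80 for JAR1. The genes outside the set that followed the profile most closely over the 12 arrays were STP12 (r = 0.979), a sugar transporter gene, OPCL1 (0.977), APS1 (0.975), a gene of sulfate assimilation, GGT4 (0.972) and HVA22A (0.970). These values describe 12 arrays that share groups, slides and scaling. OPCL1 encodes the ligase that activates OPDA derivatives for beta-oxidation.

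Other genes of the plastid part of the pathway moved less, apart from AOC2. Of 8 listed, 5 were tested, 1 had no probe under its name (LOX6), and 2 lipase genes, DAD1 and DGL, did not pass the filter. With salt, 2 fell and none rose in SvGRP, and 2 rose and 2 fell in wild type (medians -0.01 and -0.05). Over all features, 31% rose and 37.8% fell in SvGRP, and 33.1% rose and 30.2% fell in wild type. The desaturase genes FAD7 and FAD8, whose products make the linolenic acid, fell in both genotypes, FAD7 by -0.46 in SvGRP and -0.27 in wild type. With E1A scaling FAD7 (0.155) and FAD8 (0.048) turned positive in wild type and neither was called in either genotype. With slide in the fit 0 of the 5 tested fell in wild type, where 45.7% of all features were called. Without replicate 1 of the wild type at 150 mM, 1 of the 5 fell there. Between the genotypes, AOC2 and AOC4 were lower in SvGRP at 150 mM NaCl, AOC4 by -0.31 (not called without replicate 1 of the wild type at 150 mM, adjusted p = 0.0941), and AOC2 alone at 0 mM.

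AOC2 had the pattern of AOC1 with a further difference at 0 mM. Its level was -0.98, -0.86 and -0.93 in SvGRP at 150 mM NaCl and -1.07, -0.72 and -1.04 in SvGRP at 0 mM, and in wild type 1.56, 1.14 and 0.64 at 150 mM and -0.30, 0.10 and 0.22 at 0 mM. Salt gave 0.02 ± 0.21 in SvGRP and a rise of 1.105 ± 0.21 in wild type (limma adjusted p = 0.00133). It was lower in SvGRP by -2.04 ± 0.21 at 150 mM (adjusted p = 0.000252) and by -0.95 ± 0.21 at 0 mM (adjusted p = 0.0138), and its interaction was -1.09 ± 0.30 (adjusted p = 0.0536). Fitted with slide, the genotype differences were -1.67 (adjusted p = 0.0652) and -0.23 (adjusted p = 0.816).

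Most genes of the peroxisomal steps after OPR3 rose with salt in both genotypes. Of the listed genes 6 were tested, of which 5 rose in SvGRP and 4 of 6 in wild type, with none lower (medians 0.61 and 0.47). Over all features 31% rose in SvGRP and 33.1% in wild type. Without replicate 1 of the wild type at 150 mM the counts were 4 in SvGRP and 3 in wild type. OPCL1 rose by 1.13 in SvGRP and 1.28 in wild type, ACX1, an acyl-CoA oxidase gene, by 1.00 and 0.71, and MFP2, of the same beta-oxidation spiral, by 0.77 and 0.67. None of the 6 was called between the genotypes at either NaCl level, where 28.9% (150 mM) and 21.2% (0 mM) of all features were.

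Genes of hormone modification and breakdown went both ways with salt in SvGRP, and in wild type the falls depended on the setting. All 9 listed were tested, and 3 rose and 3 fell in SvGRP while 3 rose and 1 fell in wild type (medians 0.18 and 0.39). That is 6 of 9 called in SvGRP, near the 68.8% of all features, and 4 of 9 in wild type, against 63.2%. With slide in the fit, 6 rose and 0 fell in wild type, where 45.7% of all features were called. E1A scaling gave 7 and 0 there, with 70.7% of all features called and 86% of those calls higher. In SvGRP these settings gave 3 up and 2 down, and 4 up and 1 down. The largest change was that of AT2G38240, which rose by 5.11 ± 0.78 in SvGRP (limma adjusted p = 0.00023) and by 4.99 ± 0.78 in wild type (adjusted p = 0.000341, and 4.09 without replicate 1 at 150 mM). JRG21 (AT3G55970) rose by 1.62 in SvGRP and by 1.104 in wild type. Its level in wild type at 150 mM was -1.44 on replicate 1, against -2.23 and -2.39 on replicates 2 and 3. Without replicate 1, 2 genes of the list rose in wild type in place of 3, and 2 fell. IAR3 and ILL6, which encode amidohydrolases that split jasmonoyl-isoleucine, fell in SvGRP by -0.45 and -0.76 and gave 0.21 and 0.17 in wild type (adjusted p = 0.2 and 0.543). CYP94B1, a relative of CYP94B3, gave -0.34 for salt in SvGRP and -0.49 in wild type, neither called. Without replicate 1 of the wild type at 150 mM both were called (-0.34 and -0.81), as was its difference at 150 mM (0.70, adjusted p = 0.0042). A fit that included slide turned its salt value in wild type to 0.145 (adjusted p = 0.465).

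At 150 mM NaCl, 10.2% of all features were higher in SvGRP and 18.6% were lower. Of that list, 1 gene was higher, ST2A, a sulfotransferase gene for hydroxyjasmonate (0.79 ± 0.19), and 3 were lower. The largest of these was JMT, the gene for the enzyme that makes methyl jasmonate, with -5.20, -5.43 and -5.77 in SvGRP at 150 mM, against -3.93, -4.17 and -4.15 in wild type at 150 mM. Its difference was -1.39 ± 0.21 (limma adjusted p = 0.00136), with no overlap. The others were ILL6 (-0.74) and IAR3 (-0.44). Without replicate 1 of the wild type at 150 mM, ILL6 gave -0.40 and IAR3 was not called (adjusted p = 0.0632). At 0 mM none of the 9 was called, against 21.2% of all features. With slide in the fit none was called at 150 mM, where JMT gave -1.455 ± 0.42 (adjusted p = 0.153) and ST2A 0.905 ± 0.36 (adjusted p = 0.282), and 0.892% of all features were called. At 0 mM that fit called 2 of the 9 as higher in SvGRP, CYP94B1 (1.23 ± 0.20, adjusted p = 0.041) and AT2G38240 (3.65 ± 0.61, adjusted p = 0.0439), against 0.911% of all features.

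Of 5 related enzymes, all tested, 3 fell with salt in SvGRP, and 1 rose and 2 fell in wild type (medians -0.22 and 0.02). Over all features, 68.8% were called in SvGRP (37.8% lower) and 63.2% in wild type (33.1% higher and 30.2% lower). Between the genotypes, 3 of the 5 were lower in SvGRP at 150 mM NaCl and 1 at 0 mM, against 18.6% and 10.8% of all features. HPL1 moved most. It encodes hydroperoxide lyase, which draws on the same hydroperoxides as AOS, and the Col-0 allele is known to be defective. HPL1 stood at -2.29, -2.55 and -2.40 in SvGRP at 150 mM NaCl and at -2.95, -2.88 and -2.69 in SvGRP at 0 mM, and in wild type at 0.66, -0.48 and -0.48 at 150 mM and at -2.35, -1.73 and -1.54 at 0 mM. It was lower in SvGRP by -2.31 ± 0.30 at 150 mM (4.96-fold, limma adjusted p = 0.000688), a difference that was also called when slide was fitted (-2.16 ± 0.35, adjusted p = 0.041). The difference was -0.97 ± 0.30 at 0 mM (adjusted p = 0.046), which was lost when slide was fitted (0.09). LOX5, a 9-lipoxygenase gene outside the jasmonate branch, was the 1 gene of the 27 around the pathway with a called interaction (-0.50 ± 0.13, adjusted p = 0.0466), against 8.96% of all features. It fell with salt by -0.92 in SvGRP and by -0.42 in wild type, and the interaction was not called without replicate 1 of the wild type at 150 mM (adjusted p = 0.0727) or when slide was fitted (adjusted p = 0.306). Other genes of the 27 were called for interaction under those settings, IAR3 without that array (-0.49, adjusted p = 0.0334) and ILL6 with slide in the fit (-1.59 ± 0.24, adjusted p = 0.0406), where 0.515% of all features were. With E1A scaling the genes of the 27 called for interaction were AOC2, HPL1, IAR3, JMT and LOX5.

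For perception, 2 of 4 listed genes were tested, MYC3 and MYC4 having no probe under their names. MYC2, the transcription factor gene of the jasmonate response, stood at 1.24, 1.48 and 2.04 in SvGRP at 150 mM NaCl and at 0.19, 0.17 and 0.14 in SvGRP at 0 mM, and in wild type at 2.17, 1.82 and 1.57 at 150 mM and at 0.81, 0.77 and 0.80 at 0 mM. Salt raised it by 1.42 ± 0.19 in SvGRP (limma adjusted p = 0.000108) and by 1.06 ± 0.19 in wild type (adjusted p = 0.000909). It was lower in SvGRP at 0 mM by -0.63 ± 0.19 (adjusted p = 0.0457), a call lost when slide was fitted (-0.14). COI1, the receptor gene, rose with salt by 0.15 in SvGRP and 0.18 in wild type. With slide in the fit, 1 of these 2 genes rose with salt in either genotype, where both rose without it. COI1 was higher in SvGRP at 0 mM by 0.16 ± 0.05 (adjusted p = 0.042), a call lost when slide was fitted (0.20, adjusted p = 0.42) and without replicate 1 of the wild type at 150 mM (adjusted p = 0.0528).

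**Figure D4:**
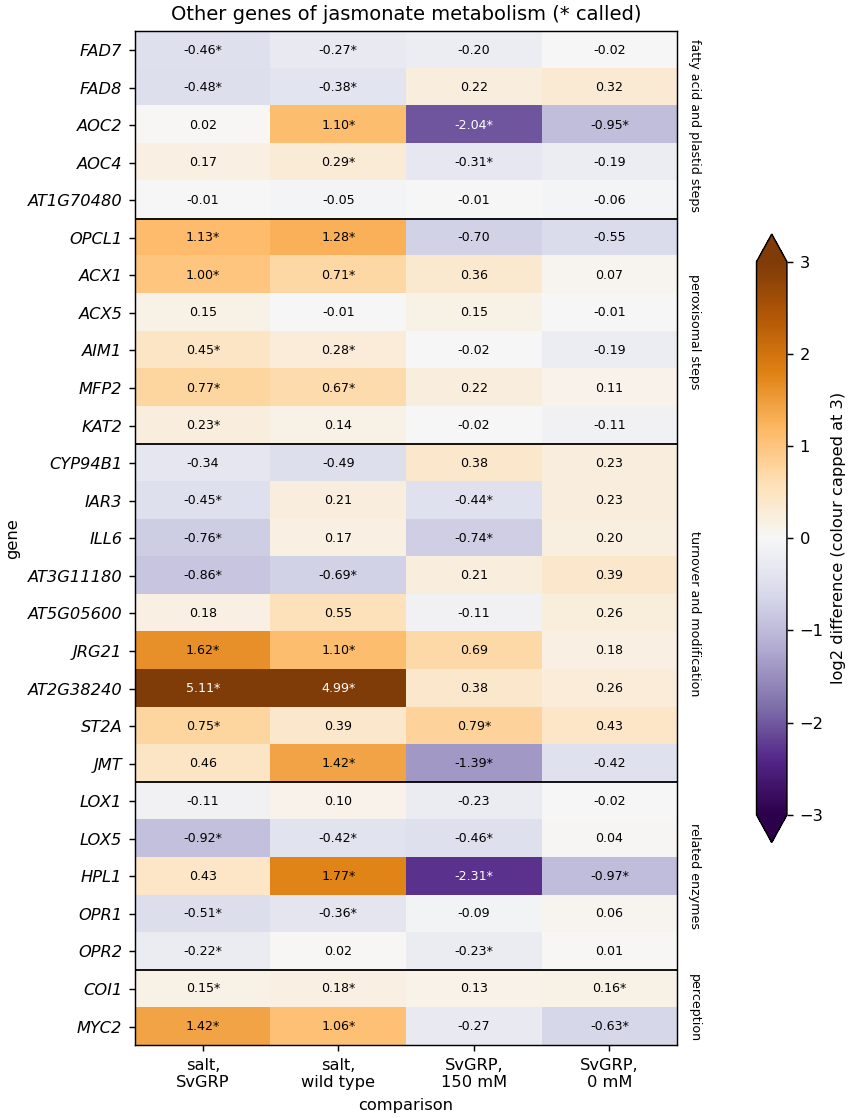
Log2 differences of 27 other tested genes around the pathway (rows, grouped by step) for salt in SvGRP, salt in wild type, SvGRP minus wild type at 150 mM NaCl and at 0 mM NaCl (columns). An asterisk marks a called value. AOC2 and HPL1 are the darkest cells of the column for SvGRP at 150 mM (-2.04 and -2.31), and MYC2 and 4 peroxisomal genes are among those positive and called in both salt columns.

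Markers of other tissues moved with the groups. The summed root signal was 47.3 to 55 in SvGRP and 51.4 to 54.5 in wild type at 150 mM NaCl, and 72.4 to 77.4 in SvGRP and 75.8 to 82.3 in wild type at 0 mM. Most of that sum is PYK10, with levels of 5.52 to 6.33. COBL9 and EXPA7 had levels of -1.01 or lower and hardly enter it. Of the 5 root markers, the root hair genes COBL9 and EXPA7 were lower in SvGRP at 150 mM, by -2.48 and -2.64, where LOX2, AOS, AOC1 and OPR3 were lower too. PYK10 (-0.03), SHR (-0.17) and SCR (0.18) were not called there, and SCR was higher in SvGRP at 0 mM (0.24, limma adjusted p = 0.037). The seed protein genes CRA1 and OLEO1, the 2 tested of 3 seed markers, were higher in SvGRP at either NaCl level. With slide in the fit no root or seed marker was called between the genotypes, where 0.892% (150 mM) and 0.911% (0 mM) of all features were. The summed seed signal was 0.0714 to 0.0955 in SvGRP and 0.0244 to 0.231 in wild type at 150 mM, and 0.0281 to 0.043 in SvGRP and 0.011 to 0.0264 in wild type at 0 mM. The part of these tissues in the members' differences was not tested.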

How the data were processed

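Total RNA of whole seedlings was labelled with Cy3 and hybridised to one-colour arrays, per the labels' protocols. The deposited array files give an intensity per probe, processed by Agilent Feature Extraction per the submitters' processing notes, with no version given in the sources used here, and not scaled between arrays. The deposited series table holds log2 values, which matched the log2 intensities scaled by the 75th percentile of their array and then centred on the median of each probe (largest absolute difference 0.000213), and it served as an alternative. The same scaling without centring was used here. A probe was kept where some group had all of its arrays above their 20th percentile (35454 of 43603). Gene names came from the platform's probe table, updated through RefSeq (TAIR10.1). An accession named 32283 probes, a locus tag 1318 and a symbol 721, while 22 kept the table's name and 9259 were not listed. A gene was represented by its brightest probe, which left 26782 features.

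All 4 groups were fitted together with limma 3.58.1 in R 4.3.3 (8 residual degrees of freedom, empirical Bayes, two-sided, Benjamini-Hochberg adjustment over all features), which was tested on simulated data. Precision is limited by the number of arrays. The named genes were the 10 members, genes of the pathway and marker lists, and the 5 named genes with the highest Pearson r with the members' mean. The members and lists were chosen with earlier results of these data known. Alternatives covered normalization, filter, probe choice, slide, replicate block, variance model, samples in the fit and leaving out each array. Background correction from raw spot signals was not run, since those columns were not used here.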

Additional observations from a re-analysis of the deposited data

How the results depend on the processing

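Over the settings run, 4 to 6 members were called for salt in SvGRP and 7 to 9 in wild type. For SvGRP against wild type at 150 mM, 3 to 5 were called under every setting but slide in the fit, which called 0. At 0 mM, where 1 was called, the count was 2 with E1A scaling, 2 with the mean of all probes, 5 with slide as a random block (consensus correlation -0.17), 4 with only the groups compared and 1 to 2 when each array was left out. The member added at 0 mM by E1A scaling and by the mean of all probes was JAR1, as higher in SvGRP (0.375 and 0.341). At 150 mM, JAR1 was called higher with the mean of all probes (0.296) and with scaling to the array median (0.14). Members added by the random slide block were lower in SvGRP. For the interaction, with 0 called, the count was 1 with E1A scaling, a strict filter, the mean of all probes, a random slide block or a trended robust variance, 2 with slide in the fit, and 0 to 1 when each array was left out. Without both arrays alone on their slide within a group, a setting added after seeing the data, it was 2 at 0 mM and 1 for the interaction.

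E1A scaling, which moved the median of all features by 0.16 and 0.46 (salt in SvGRP and wild type), 0.14 and 0.39 (genotype at 150 and 0 mM) and -0.24 (interaction), reversed JAR1 for salt in SvGRP (0.14) and wild type (0.28) and in the interaction (-0.14), AOS for salt in SvGRP (0.13), LOX3 at 150 mM (0.035), and at 0 mM AOS (0.038), AOC1 (0.28), OPR3 (0.01), CYP94B3 (0.21) and CYP94C1 (0.20). It put 64.7% and 86% of salt calls (SvGRP, wild type) on the higher side, against 45.1% and 52.3%, 65.6% and 95.7% of genotype calls (150 and 0 mM), against 35.4% and 49.2%, and 6.4% of interaction calls, against 28.1%. Slide in the fit reversed LOX3 (0.21) at 150 mM, LOX3 (0.38), AOS (0.16), AOC1 (0.86), AOC3 (0.16), OPR3 (0.50), CYP94B3 (0.10) and CYP94C1 (3.27) at 0 mM, and LOX3 in the interaction (-0.17). The values at 0 mM with slide in the fit rest on replicate 1 of the wild type at 150 mM. The mean of all probes reversed AOC1 for salt in SvGRP (-0.087) and JAR1 in the interaction (-0.045). Leaving out both lone arrays reversed AOC1 for salt in SvGRP (-0.045), LOX3 at 150 mM (0.22), AOC1 (0.015) and CYP94B3 (0.063) at 0 mM and CYP94C1 in the interaction (0.026). Leaving out 1 array gave ranges across 0 for AOS (-0.19 to 0.005) and AOC1 (-0.045 to 0.22) for salt in SvGRP, LOX3 (-0.40 to 0.22) and CYP94B3 (-0.024 to 0.295) at 150 mM, AOC1 (-0.25 to 0.032) and CYP94B3 (-0.39 to 0.063) at 0 mM, and AOC3 (-0.39 to 0.10) and CYP94C1 (-1.82 to 0.037) in the interaction. Apart from the scaling itself and the fewer arrays, the cause was not tested. Except for JAR1 for salt in wild type, none of these was called as reported.

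Replicate numbers did not pair the arrays (correlations of same-numbered deviations -0.18 to 0.015). The replicate block called 4, 8, 4, 1 and 0 members for salt in SvGRP and wild type, genotype at 150 and 0 mM and the interaction, AOS being lost for salt in wild type (adjusted p = 0.0705). Slides are partly confounded with the groups, and 3 arrays a group limit the precision.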
